A study of Mus musculus with 6 samples.

Results

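The Hedgehog pathway genes described here are the receptor *Ptch1*, the signal transducer *Smo*, the coreceptors *Boc* and *Cdon*, the ligand-binding inhibitor *Hhip*, the Gli-binding protein gene *Sufu* and the transcription factor genes *Gli1*, *Gli2* and *Gli3*. They were chosen by gene symbol, and 8 of the 9 were matched to the 24016 mouse genes of the deposited table. *Hhip* had no matching identifier, so its expression was not analysed here. The samples were MC3T3-E1 subclone 4 cells, a wild-type preosteoblast line from mouse calvaria, differentiated over 6 days with β-glycerophosphate at 10 mM and ascorbic acid at 50 μg/ml. Of the 6 cultures, 3 then received vehicle and 3 received corticosterone, the principal glucocorticoid of rodents, at 100 nM for 24 h. The labels of all 6 samples also list 10 nM calcitriol during treatment. They give passages 4 to 10 in one field and 6 to 12 in another, so the cultures cannot be placed by passage. All cultures came from 1 subcloned line, and the results apply to that line.

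Hedgehog ligands are secreted proteins that bind PTCH1 on the receiving cell, with BOC, CDON and GAS1 as coreceptors. Ligand binding relieves the inhibition of SMO by PTCH1, SMO enters the primary cilium, and GLI2 and GLI3 are no longer cut into transcriptional repressors. In the absence of ligand, SUFU holds the GLI proteins back, and GLI3 is the main repressor form. *Ptch1*, *Gli1* and *Hhip* are themselves induced by the pathway and serve as its usual transcriptional readouts. In the growing skeleton, Indian hedgehog from chondrocytes is required for the formation of osteoblasts in endochondral bone.

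Between 16020401 and 25638645 reads were counted on genes per library, and every corticosterone library was shallower than every vehicle library. The deposited values, here termed normalized counts, are reads scaled by 1 size factor for each library. They are not corrected for gene length. A gene with 3 reads, taken as the floor, has a normalized count between 2.32 and 3.84. The difference between groups was tested in limma on log2(normalized count + 0.1), the scale of every log2 fold change given, and p-values were adjusted by the Benjamini-Hochberg method across all 24016 genes. SE is the standard error of a log2 fold change. A gene is called changed at an adjusted p under 0.05. The known glucocorticoid targets *Tsc22d3*, *Sgk1*, *Fkbp5* and *Per1* were all called higher in the libraries labelled corticosterone.

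Corticosterone was followed by a change in 3 of the 8 genes. *Gli3* mRNA fell by 25.7% and *Cdon* mRNA fell by 12.3%, whereas *Boc* mRNA rose by 33.6%. *Ptch1*, *Smo*, *Sufu*, *Gli1* and *Gli2* were not called. Over all genes, 16.7% were called, 8.49% higher and 8.2% lower. Among the 10558 genes with a mean normalized count of at least 100, the share called was 32.6%. Of the 8 genes, 6 had such a mean and 3 of these were called, a number too small to set apart from that share. None of the 8 also had an absolute log2 fold change over 1, the study's second limit, which 2.78% of all genes passed together with the adjusted p, 1.38% higher and 1.4% lower. The median log2 fold change was -0.10 over the 7 genes other than *Gli2*, which was under the floor, against -0.01 over all genes. In bulk RNA, fewer cells with a transcript and less of it per cell cannot be told apart.

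The start-site windows of *Gli3* and *Cdon*, the genes that fell, are shown because their base composition differed. Both are RefSeq sequences of GRCm38.p6 on the plus strand, from 250 bases before to 50 after the annotated start, 5′ to 3′, with each CpG in capitals.
Gli3, chr13:15463473-15463772: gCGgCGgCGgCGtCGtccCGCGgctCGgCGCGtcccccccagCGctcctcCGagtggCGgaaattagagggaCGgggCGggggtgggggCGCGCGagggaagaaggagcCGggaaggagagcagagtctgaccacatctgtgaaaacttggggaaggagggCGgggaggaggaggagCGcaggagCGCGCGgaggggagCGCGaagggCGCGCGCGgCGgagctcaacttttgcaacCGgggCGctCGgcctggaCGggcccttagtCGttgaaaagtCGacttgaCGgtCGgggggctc
Cdon, chr9:35451826-35452125: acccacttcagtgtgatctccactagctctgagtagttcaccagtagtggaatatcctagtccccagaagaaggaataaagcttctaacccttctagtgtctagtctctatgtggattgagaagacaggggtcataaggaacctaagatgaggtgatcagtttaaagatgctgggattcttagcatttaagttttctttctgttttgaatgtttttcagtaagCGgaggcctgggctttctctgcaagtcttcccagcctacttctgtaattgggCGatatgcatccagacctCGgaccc
The *Gli3* window held 39 CpGs and 71% G and C, the *Cdon* window 3 CpGs and 44.7% G and C, and the median over 32851 promoter windows was 52.7%. Both windows begin inside the GENCODE gene, downstream of its outermost start, and represent only the RefSeq start. The *Gli3* window begins at 15463473, close to its gene's outermost start at 15463235. The *Cdon* window begins at 35451826, much farther from its gene's outermost start at 35421128. The difference in composition may therefore be one between unlike kinds of start. *Boc* and *Gli1* had no entry among these windows, whereas *Hhip* had one and is counted below. The glucocorticoid receptor palindrome, AGAACA followed after any 3 bases by TGTTCT and searched on both strands, was in 0 of the 7 windows of the listed genes and in 0.00913% of all windows. Its shorter element AGAACA, searched on both strands and contained in the palindrome, was found in 1 of the 7 windows, that of *Sufu*, and in 19% of all windows. The Gli site GACCACCCA, on both strands, was in 0 of the 7 and in 0.253% of all windows. These counts describe the letters of short windows and say nothing about binding.

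Levels between genes were compared per kb of annotated exon, as normalized counts per kb with vehicle. *Smo* had the highest level, 1165 ± 24.9 per kb (SD, n = 3), which exceeded 97.0% of all genes. *Cdon* followed with 996 ± 58.3 per kb (SD, n = 3). *Boc*, the related coreceptor, was lower at 211 ± 20.2 per kb (SD, n = 3). *Sufu* with 156 ± 11.9 and *Gli3* with 149 ± 1.75 per kb (SD, n = 3 each) overlapped between libraries, so their order was not resolved. *Ptch1* had 25.3 ± 1.19 per kb (SD, n = 3), near the middle of all genes. *Gli1* had 3.47 ± 0.858 per kb (SD, n = 3). *Gli2* stood at the bottom, with 0 to 2 reads in any library. All other neighbours in this order were separated without overlap between the vehicle libraries. With corticosterone the order of the means was the same, and *Boc*, at 283 ± 38.4 per kb (SD, n = 3), remained below *Cdon*, at 872 ± 21.7 per kb (SD, n = 3). Exon length sums all annotated exons, so a gene with long alternative exons, such as *Ptch1* with 14185 bases, is placed too low if the cells use a shorter form.

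**Figure D1:**
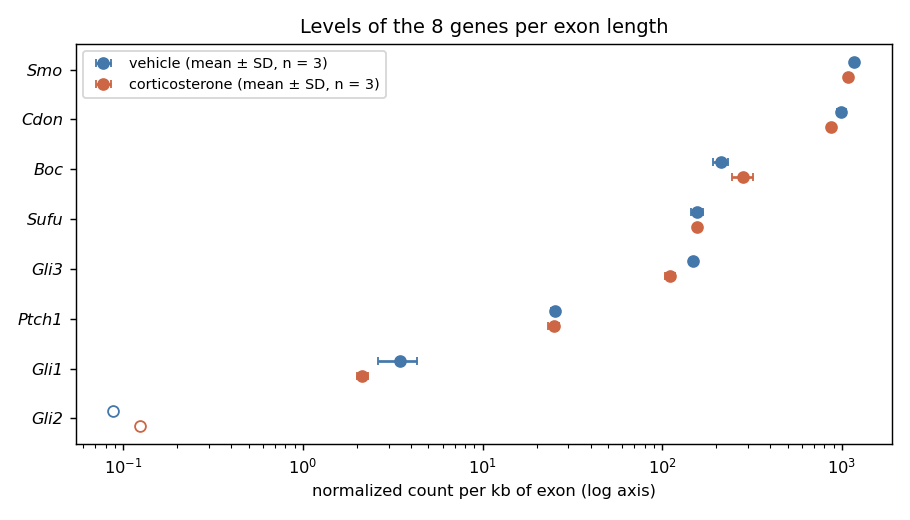
Level of each gene as normalized count per kb of exon (log axis), mean ± SD of 3 libraries for vehicle (blue) and corticosterone (orange); open circles mark *Gli2*, at or under the floor, without error bars. *Smo* and *Cdon* lie highest, *Gli1* and *Gli2* lowest.

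PTCH1 is the receptor that represses the pathway until ligand binds. The normalized count of *Ptch1* (ENSMUSG00000021466, chromosome 13, 63508328 to 63573598 of GRCm38, minus strand) was 368, 339.6 and 369 with vehicle and 346, 379.9 and 334 with corticosterone. The 2 groups overlapped throughout. The log2 fold change was -0.02 (95% interval -0.20 to 0.15, limma adjusted p = 0.91), an interval that leaves room for a change of modest size in either direction.

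SMO is the seven-pass membrane protein that carries the signal into the cell. *Smo* (ENSMUSG00000001761, chromosome 6, 29735503 to 29761365, plus strand) had normalized counts of 6409, 6549 and 6689 with vehicle and 6016, 6057 and 6306 with corticosterone. The highest of the corticosterone libraries was just below the lowest of the vehicle libraries. The log2 fold change of -0.10 (SE 0.04, limma adjusted p = 0.12) did not pass the test. It passed with upper-quartile scaling (-0.16, adjusted p = 0.019), scaling to the same total (-0.14, adjusted p = 0.017) and quantile normalization (-0.19, adjusted p = 0.0014), so the call for *Smo* depends on the scaling. Groups without overlap, as here, were seen in 29.6% of all genes (14.7% higher, 14.9% lower), and in 5 of the 8 genes described, *Boc* higher and *Smo*, *Gli1*, *Gli3* and *Cdon* lower.

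BOC and CDON are related membrane proteins of the immunoglobulin superfamily that present ligand to PTCH1. *Boc* (ENSMUSG00000022687, chromosome 16, 44485049 to 44558897, minus strand) had normalized counts of 1044, 895 and 883 with vehicle and 1278, 1082 and 1423 with corticosterone. The groups did not overlap, although the highest vehicle library and the lowest corticosterone library came within a few percent of each other. *Boc* rose by a log2 fold change of 0.42 (SE 0.09, limma adjusted p = 0.0023). With 1 library left out, the log2 fold change of *Boc* was between 0.33 and 0.52, and the limma adjusted p stayed under 0.05 only without the second corticosterone library (0.037), against 0.077 to 0.21 without any of the other 5. It was 0.19 when limma's prior variance was held constant instead of following the mean level, a setting called no variance trend below.

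*Cdon* (ENSMUSG00000038119, chromosome 9, 35421128 to 35507652, plus strand) had normalized counts of 7932, 7166 and 7957 with vehicle and 6665, 6607 and 6921 with corticosterone. The second vehicle library lay closest to the corticosterone libraries, and the groups did not overlap. *Cdon* fell by 0.19 on the log2 scale (SE 0.05, limma adjusted p = 0.0070). Without the second vehicle library the log2 fold change of *Cdon* was -0.24 (limma adjusted p = 0.014), whereas the limma adjusted p was 0.076 to 0.16 without any of the other 5 libraries and 0.23 without a variance trend.

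The coreceptors moved in opposite directions. Their ratio within a library, which does not depend on the scaling between libraries, was among the planned ratios. It rests on the same libraries as the calls for *Boc* and *Cdon* and adds no independent support to them. The log2 ratio of *Boc* to *Cdon* normalized counts was -2.92, -3.00 and -3.17 with vehicle and -2.38, -2.61 and -2.28 with corticosterone. All 3 corticosterone libraries exceeded all 3 vehicle libraries, and the mean log2 ratio was higher by 0.61 (p = 0.1 by a two-sided exact permutation test, which cannot go lower with 3 against 3). Leaving out any 1 library gave a difference between 0.54 and 0.70. The log2 ratio of *Ptch1* to *Smo*, receptor to transducer, was -4.19 ± 0.07 with vehicle and -4.12 ± 0.12 with corticosterone (SD, n = 3 each). Its difference of 0.07 was within the spread between libraries (two-sided exact permutation test, p = 0.4), and ranged from 0.01 without the second corticosterone library to 0.13 without the third.

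**Figure D2:**
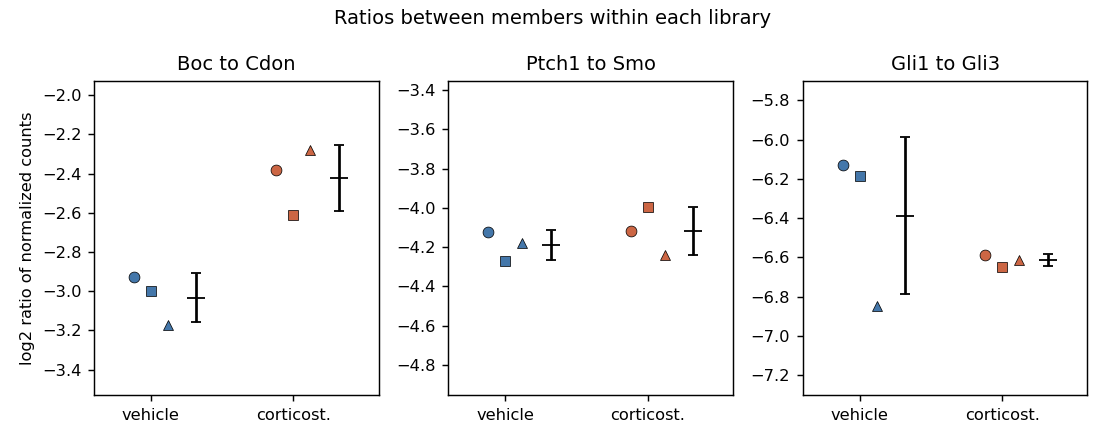
Log2 ratio of normalized counts of *Boc* to *Cdon*, *Ptch1* to *Smo* and *Gli1* to *Gli3* in each library, with mean ± SD (n = 3); circles, squares and triangles are replicates 1, 2 and 3, and each axis spans the same range of log2 units. Only the ratio of *Boc* to *Cdon* separates vehicle (blue) from corticosterone (orange).

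SUFU binds GLI proteins in the cytoplasm and restrains them. *Sufu* (ENSMUSG00000025231, chromosome 19, 46396896 to 46488804, plus strand) had normalized counts of 1241, 1094 and 1262 with vehicle and 1174.5, 1188 and 1246 with corticosterone. The corticosterone values fell within the vehicle range. The log2 fold change of *Sufu* was 0.01 (95% interval -0.12 to 0.14, limma adjusted p = 0.98).

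Of the 3 Gli genes, *Gli3* was the only one with more than 25 reads in a library. GLI3 acts as a repressor of Hedgehog target genes when cut, and as a weak activator at full length. *Gli3* (ENSMUSG00000021318, chromosome 13, 15463235 to 15730026, plus strand) had normalized counts of 1426, 1409 and 1443 with vehicle and 1039, 1006 and 1137 with corticosterone. The vehicle libraries lay close together, and all 3 corticosterone libraries were well below them. *Gli3* fell by 0.43 on the log2 scale (SE 0.06, 95% interval -0.55 to -0.31, limma adjusted p = 2.7e-05). *Gli3* was called lower in 18 of 18 alternative fits, with log2 fold changes from -0.50 to -0.39 and adjusted p values up to 0.037. The reads behind *Gli3* were 889 to 1826 per library. A gene on the opposite strand shares 1.96% of its exon bases, and 1.53% of its 31-base stretches also lie in transcripts of another gene.

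GLI1 is an activator whose gene is a direct target of the pathway. *Gli1* (ENSMUSG00000025407, chromosome 10, 127329882 to 127341974, minus strand) had normalized counts of 20.3, 19.3 and 12.4 with vehicle and 10.7, 9.94 and 11.5 with corticosterone. The corticosterone libraries were all below the vehicle libraries, of which the third was close to them. The values of *Gli1* rest on 9 to 25 reads per library, and the log2 fold change of -0.66 (95% interval -1.54 to 0.23, limma adjusted p = 0.36) did not pass the test. The lowest adjusted p of *Gli1* in any alternative was 0.15. An antisense gene shares 5.31% of the exon bases of *Gli1*, and its reads cannot be told apart where counting ignores strand. The log2 ratio of *Gli1* to *Gli3* was -6.39 ± 0.40 with vehicle and -6.62 ± 0.03 with corticosterone (SD, n = 3 each), a difference of -0.23 that was not larger than the spread between libraries (two-sided exact permutation test, p = 0.4). It was -0.46 without the third vehicle library, -0.10 without the first and -0.13 without the second.

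GLI2 is the main activator of the pathway in many tissues. *Gli2* (ENSMUSG00000048402, chromosome 1, 118834132 to 119053619, minus strand) had 0, 1 and 1 reads with vehicle and 0, 0 and 2 reads with corticosterone. All 6 values were under the floor of 3 reads, so no fold change is given and a difference was not detectable at this depth.

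**Figure D3:**
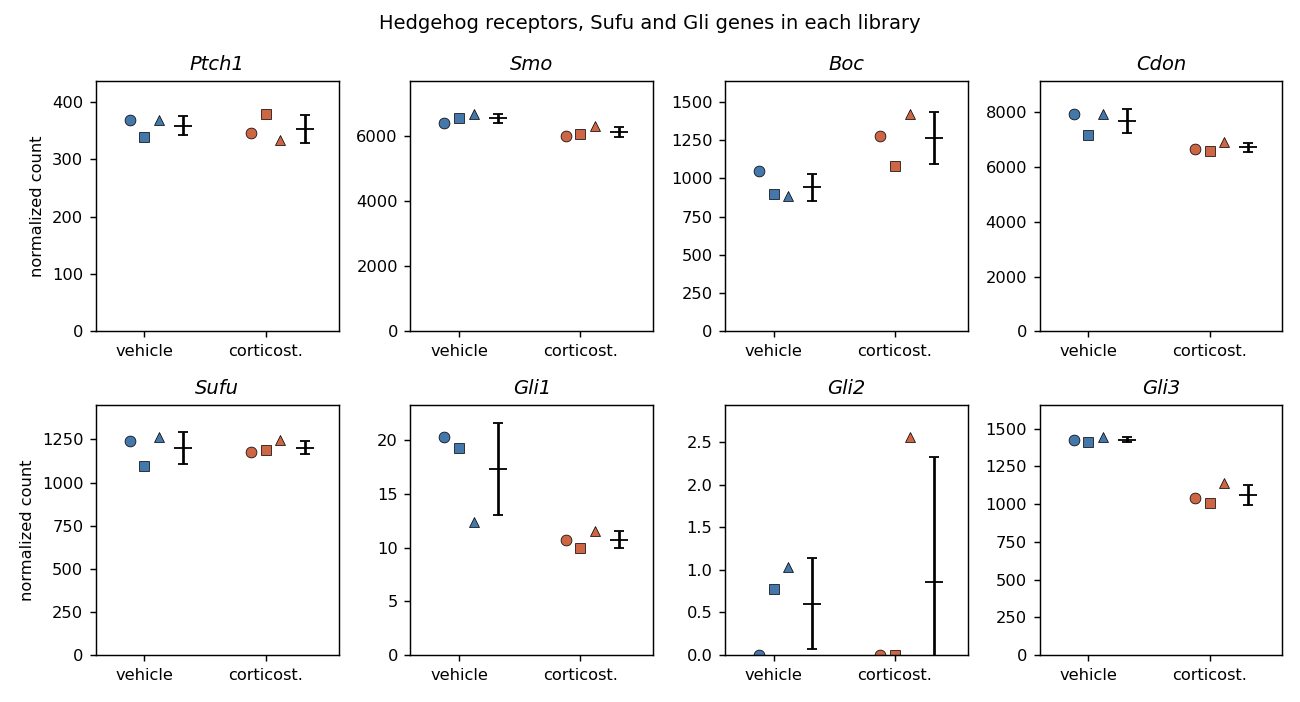
Normalized count of each of the 8 genes in each library (vertical axes start at 0), vehicle in blue and corticosterone in orange; circles, squares and triangles are replicates 1, 2 and 3, and bars give mean ± SD (n = 3). *Gli3* falls from 1409 to 1443 with vehicle to 1006 to 1137 with corticosterone, *Boc* rises, and *Ptch1* and *Sufu* overlap between groups.

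By the closeness of centred log2 values over the 6 libraries, the genes most like *Gli3* among 13879 others with a mean normalized count of at least 10 were *Brsk1*, *Six2*, *P3h3*, *Fgd1* and *P4ha3*. Their root mean square difference from *Gli3* was between 0.027 and 0.034 on the log2 scale. *P3h3* and *P4ha3* encode collagen prolyl hydroxylases, and *Six2* encodes a homeobox transcription factor. *Six2* had mean normalized counts of 3169 with vehicle and 2354 with corticosterone, a log2 fold change of -0.43. With 2 groups of 3, this likeness mostly reflects a similar difference between the groups.

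Genes of ligand production and release were compared from a list of 8. The ligand genes themselves had few reads, 0 to 6 of *Shh*, 0 to 5 of *Ihh* and 0 to 2 of *Dhh* per library, and were not called. *Hhat*, which encodes the acyltransferase that palmitoylates Hedgehog ligands, rose from 316, 317 and 327 with vehicle to 536, 508 and 574 with corticosterone in normalized counts. Its groups were far apart. The log2 fold change of *Hhat* was 0.75 (SE 0.07, limma adjusted p = 1.2e-06), the largest among the called genes of the pathway with a mean normalized count of at least 10. *Disp1*, which encodes the transporter that releases ligand, fell by 0.19 on the log2 scale (limma adjusted p = 0.011), and *Scube3*, a secreted ligand-binding protein gene, fell by 0.27 (limma adjusted p = 0.032) with overlapping groups. The call for *Disp1* was lost without the third vehicle, first corticosterone or second corticosterone library, and that for *Scube3* without any 1 library. *Scube1* and *Scube2* were not called.

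Of 6 further surface genes, 5 had a value. *Gas1*, a coreceptor gene, had normalized counts of 6387, 6832 and 6351 with vehicle and 5384, 5732 and 6038 with corticosterone, and fell by 0.19 on the log2 scale (limma adjusted p = 0.0090). Of its 31-base stretches, 18.2% also lie in other transcripts, and the call for *Gas1* was kept without the third corticosterone library (limma adjusted p = 0.047) but lost without any of the other 5 (0.12 to 0.18). *Gpc3* was called lower (limma adjusted p = 0.028) on 2, 5 and 2 reads with vehicle and 0 in each corticosterone library, too few for a fold change, and it was tested at all only through the vehicle libraries. *Gpc6* was nearly equal, with a log2 fold change of 0.00 (95% interval -0.12 to 0.13).

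Among 27 regulators in the cytoplasm and cilium, 3 were called higher and 12 lower, and 12 were not called. Over all genes 16.7% were called, and 32.6% (17.1% higher, 15.5% lower) of those with a mean normalized count of at least 100. The median log2 fold change of this list was -0.18, against -0.01 over all genes. The largest fall was that of *Stk36*, a kinase gene of the Gli complex, with normalized counts of 165, 154 and 142 with vehicle and 93.1, 90.6 and 97.2 with corticosterone. No corticosterone library came near the vehicle range, and the log2 fold change was -0.71 (SE 0.13, limma adjusted p = 6.2e-04). *Gpr161*, which encodes a ciliary receptor that raises cAMP and thereby favours Gli repressor forms, fell by 0.46 (limma adjusted p = 6.7e-04).

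The genes of the catalytic subunits of protein kinase A, which primes GLI proteins for cutting, fell too, *Prkaca* by 0.28 (limma adjusted p = 2.2e-04) and *Prkacb* by 0.28 (limma adjusted p = 3.9e-04) on the log2 scale. *Kif7*, a ciliary kinesin gene, fell by 0.43 (limma adjusted p = 0.0055), and *Kif3a*, a motor gene of transport within the cilium, fell by 0.32 (limma adjusted p = 0.0012). The call for *Kif7* was lost without the first corticosterone library or without any 1 vehicle library, and 18.1% of its 31-base stretches lie in other transcripts. The genes called higher were *Ulk3*, a kinase gene, with a log2 fold change of 0.45, *Tulp3*, which carries receptors including GPR161 into cilia, with 0.31, and *Spop*, an adaptor for the degradation of GLI proteins, with 0.28. *Arl13b*, *Gsk3b*, *Btrc*, *Iqce* and *Dzip1*, also called lower, had log2 fold changes from -0.30 to -0.18, and each of these calls was lost in 5 or 6 of the fits that left out 1 library. The intraflagellar transport genes *Ift88* and *Ift172* were not called, with log2 fold changes of -0.21 and -0.03.

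**Figure D4:**
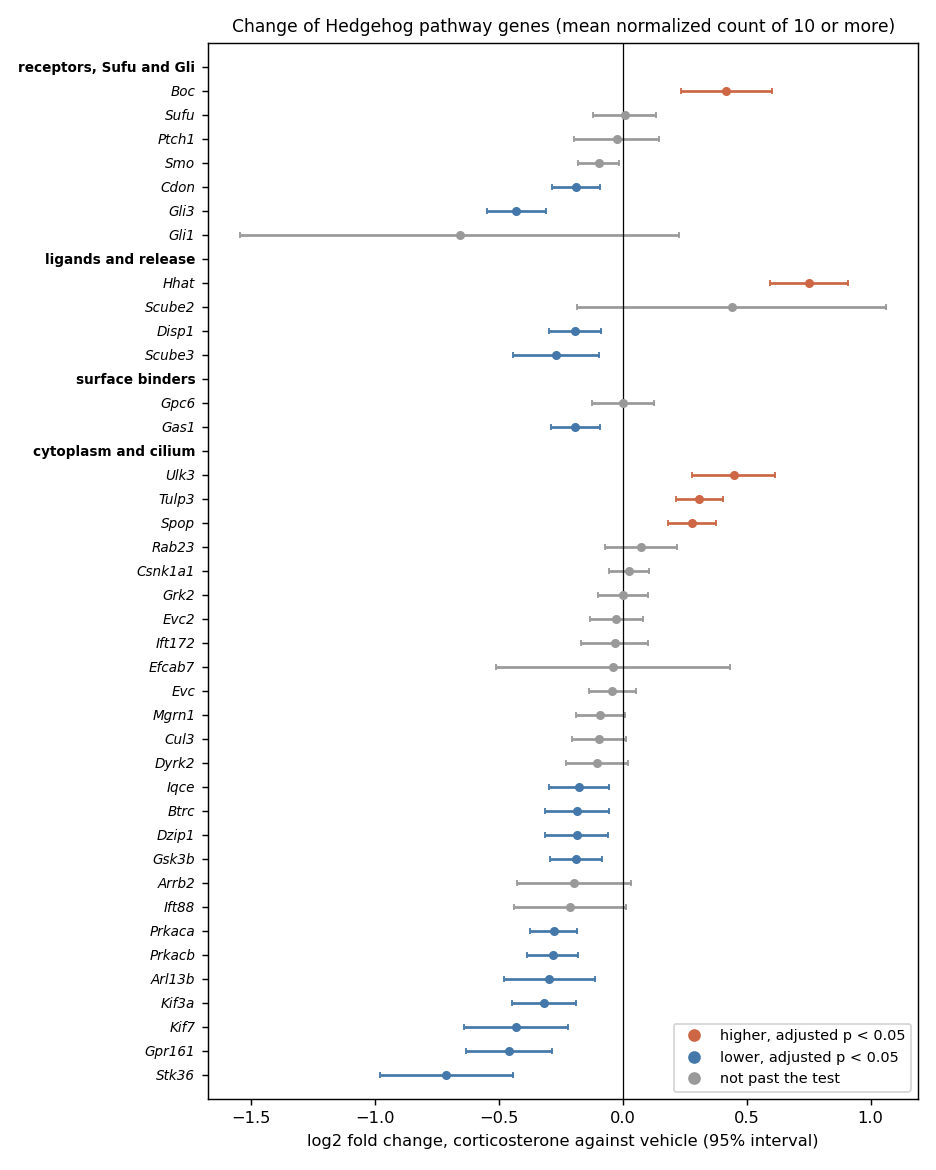
Log2 fold change of corticosterone against vehicle with its 95% interval from limma for pathway genes with a mean normalized count of at least 10, grouped by role; orange points were called higher, blue points lower and grey points not called at an adjusted p of 0.05. The points of *Hhat* (0.75) and *Stk36* (-0.71) lie farthest out among the called genes.

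These calls depended on how the variance was estimated. The ligand, surface and regulator lists held 8, 5 and 27 genes with a value. Over these lists together, 4 genes were called higher and 16 lower, against 1 and 3 without the variance trend. Calls over all genes went from 4010 (16.7%, with 8.49% higher and 8.2% lower) to 1633 (6.8%) under the same setting. With the trend, 32.6% of genes with a mean normalized count of at least 100 were called. *Hhat*, *Stk36* and *Gpr161* kept an adjusted p under 0.05 in each of the 18 alternatives, and 7 more of the 20 lost it only without the variance trend.

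Of 16 known Gli target genes outside the 8, 15 had a value, and 2 were called higher and 3 lower, a share of 33.3% that is near the 32.6% among genes with a mean normalized count of at least 100. *Foxf1*, a forkhead transcription factor gene, rose from 6103, 6158 and 6028 to 9081, 9288 and 9389 in normalized counts. The 2 groups were clearly separated, and the log2 fold change was 0.60 (SE 0.04, limma adjusted p = 5.2e-09). *Snai1*, which encodes a repressor of epithelial genes, rose by a log2 fold change of 0.63 (limma adjusted p = 1.1e-06). *Grem1*, a BMP antagonist gene, fell by 0.58 (limma adjusted p = 8.2e-07), *Ccnd2* by 0.27 (limma adjusted p = 5.1e-04) and *Foxm1* by 0.21 (limma adjusted p = 0.0031). The call for *Ccnd2* was lost without the third vehicle library or without any 1 corticosterone library. *Ccnd1*, *Foxf2* and *Igfbp6* were not called, and the list as a whole moved in no single direction, with a median log2 fold change of -0.15 over the 14 above the floor. These genes also respond to signals other than Hedgehog.

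Markers of other cell types were examined beside these results. All 10 osteoblast markers were detected with at least 48 reads per library. At the adjusted p limit, 8 of them were called lower, *Spp1* was called higher and *Dmp1* was not called. This share of 90% compares with 16.7% over all genes and 32.6% of those with a mean normalized count of at least 100. Of 5 chondrocyte markers, 4 had a value, *Col2a1* and *Sox9* fell, *Col10a1* rose, and *Matn1* had 0 to 2 reads, with a summed normalized count of 3543 to 3956 with vehicle and 2987 to 3017 with corticosterone. Of 5 adipocyte markers, 2 had a value, and their sum was 7.72 to 21.1 with vehicle and 108 to 133 with corticosterone through *Fabp4*, while *Plin1* had 0 to 2 reads. Of 5 myeloid and osteoclast markers, 4 had a value, *Ctsk* fell, *Acp5* had at most 4 reads, and the sum was 1848 to 2008 with vehicle and 1456 to 1521 with corticosterone. The endothelial sum was at most 12.8 and the muscle sum at most 5.12 in any library, with no gene called. The part of these shifts in the results for the Hedgehog genes was not tested.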

How the data were processed

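RNA-seq libraries of 3 vehicle and 3 corticosterone cultures were analysed. The deposited table holds a non-negative signal per gene, named FPKM by the authors, whose values are whole multiples of 1 step per library for 100% of genes (tolerance 0.01 reads), that is, counts that the authors divided by size factors. The submitters' processing notes name mm10. The aligner, counter, annotation and strand setting are not given in the sources used here. The authors tested with DESeq2.

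Genes with a mean of at least 0.1 (all 24016) were tested on log2(value + 0.1) with limma 3.58.1 under R 4.3.3, using its variance trend. Ratios used two-sided exact permutation tests in scipy 1.17.1. The planned ratio of *Ptch1* to *Hhip* could not be formed. Alternatives were other pseudocounts, filters and scalings, no variance trend, the replicate block, each library left out, and edgeR 4.0.16 and DESeq2 1.42.0 on the recovered reads. Fits were tested on simulated data. P-values measure the spread between these cultures. Symbols, exon lengths and transcripts came from GENCODE on GRCm38, which matched 24008 identifiers, and promoter windows from RefSeq for 7 of the 9 genes.

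The genes and lists were chosen with earlier results of these data known. Some listed genes are counted but not reported by name here. The text names these genes, list members and the 5 genes most like the one with the lowest adjusted p. Replicate numbers are shared by the groups in the labels without a stated pairing.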

Additional observations from a re-analysis of the deposited data

How the results depend on the processing

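Without a variance trend, 873 genes were called higher and 760 lower (2040 and 1970 with it), 0 of the Hedgehog genes higher and 1 lower, 1 further pathway gene higher and 3 lower, and 1 Gli target lower. Upper-quartile scaling called 1349 genes higher, 34.2% of its calls, and scaling to the same total 40.3%, against 50.9% as deposited. With 1 library left out, 1304 to 1585 genes were called higher and 1058 to 1456 lower, 0 to 1 Hedgehog genes higher and 1 to 2 lower, 7 to 11 further pathway genes lower, and 2 to 3 Gli targets lower; these fits rest on 5 libraries. *Gli3* was called lower in each. The difference in the log2 ratio of *Gli2* to *Gli3*, -0.20, was 0.42 with a pseudocount of 1 and ranged from -1.73 to 0.57 with 1 library left out, since *Gli2* had at most 2 reads. The cause of the other shifts was not tested.

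Deviations of libraries with the same replicate number from their group means had correlations of -0.044, 0.0014 and 0.023 across 13880 genes. No pairing by number was seen, although 3 libraries per group cannot exclude one. In limma the replicate block gave 3905 calls against 4010 and, for *Gli3*, a limma adjusted p of 9.7e-05. Among the Hedgehog genes, the ligand, surface and regulator lists and the Gli targets, the limma block changed only the call of *Iqce* (limma adjusted p = 0.059). In edgeR the block gave more calls, 4606 against 4327. With the block, the ratio of *Boc* to *Cdon* had an exact permutation p of 0.25, the smallest that 3 pairs allow. *Gli2* was removed by edgeR's filter and received no adjusted p from DESeq2. Counts of reads limit *Gli1*, *Gli2* and the ligand genes.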
